A study of Mus musculus with 2 samples.

Results

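The genes described here encode heterotrimeric G proteins and the proteins that regulate them: 10 alpha subunits, 5 beta subunits, 10 gamma subunits, 13 regulators of G protein signaling (RGS genes) and the 2 alpha subunit chaperones Ric8a and Ric8b. They were taken by symbol from the deposited gene tables, and each of the 40 symbols matched 1 row among 43346 mouse gene rows. The tables come from midbrain tissue of newborn mice (postnatal day 0, strain B6NCrl), with 1 library from pup 1 and 1 from pup 3. The input to each was 13 pg of mirVana-extracted total RNA over 200 nt, stated to equal 1 cell, and it was amplified by a SMART-type method. Synthetic RNAs were added as spike-ins. The assay is listed as a single-cell one, but the input was RNA of a whole tissue. The labels name no allele and no treatment, so both libraries form a single group and no condition was compared. The sex of the pups was not recorded, and a single donor record is named for both.

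A heterotrimeric G protein carries the signal of a seven-helix receptor into the cell. The receptor makes the alpha subunit exchange GDP for GTP, and the alpha subunit and the beta-gamma dimer then act on separate effectors. Alpha subunits of the Gi/o class lower cyclic AMP and free the beta-gamma dimers that open potassium channels, and those of the Gq class activate phospholipase C beta. RGS proteins end the signal by speeding GTP hydrolysis on the alpha subunit, and Ric8 proteins help nascent alpha subunits fold. In newborn brain these pathways serve migrating and differentiating neurons, and Rgs5 is best known from pericytes, the mural cells of small vessels.

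The last codons of the alpha subunits are shown because the carboxyl terminus touches the receptor and holds the residue that pertussis toxin modifies in most of the Gi/o class. The 30 bases that end the coding sequence, stop codon included, are shown for 7 genes from GENCODE M21 on GRCm38, and capitals mark the codon of the fourth residue from the end.
Gnai1 (chr5:18267019-18267048, minus strand): aataacctaaaagacTGTggtctcttctaa
Gnai3 (chr3:108109422-108109451, minus strand): aacaacttaaaggaaTGTgggctttattga
Gnao1-201 (chr8:93967026-93967055, plus strand): aacaatctccggggcTGCggcttgtactga
Gnao1-207 (chr8:93956223-93956252, plus strand): aaaaacctacggggcTGTggactctactga
Gnaz (chr10:75015183-75015212, plus strand): aacaatctcaagtacATCggcctttgctga
Gnaq (chr19:16383365-16383394, plus strand): ctgaacctgaaggagTACaatctggtctaa
Gna11 (chr10:81530795-81530824, minus strand): ctgaacctgaaggagTACaacctggtgtga
Gna13 (chr11:109396457-109396486, plus strand): gacaacctgaagcagCTCatgctgcagtga
The marked codon is cysteine in Gnai1, Gnai3 and both forms of Gnao1, and also in Gnai2. This cysteine is the toxin's target. Gnaz has isoleucine there, Gnaq and Gna11 have tyrosine, Gna13 has leucine, and Gna12 has isoleucine.

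The gamma subunits end in a CaaX box, the 4 residues that direct attachment of a lipid to the cysteine. Its codons are in capitals for the 3 genes with the highest mean TPM and for the single gene whose box ends differently.
Gng3 (chr19:8838143-8838172, minus strand): gagaagaagttcttcTGTGCGCTCCTCtga
Gng2 (chr14:19875807-19875836, minus strand): gagaagaagttcttcTGCGCCATCCTTtaa
Gng10 (chr4:59039323-59039352, plus strand): cgggagcccaggtccTGTGCTCTACTTtga
Gng11 (chr6:4008131-4008160, plus strand): aaagaaaagggcagcTGTGTCATTTCAtaa
Gng3, Gng2 and Gng10 end in leucine, the residue recognised for the longer geranylgeranyl lipid. Gng11 ends in serine, the residue recognised for the shorter farnesyl lipid. The other 6 gamma genes listed also end in leucine.

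The first 30 coding bases of 4 RGS genes are shown because the second residue sets how long some of these proteins last. A cysteine there, once exposed, is a signal for degradation by the N-end rule. The second codon is in capitals, and Rgs4 is shown by the transcript that led it in pup 3.
Rgs4-202 (chr1:169747494-169747523, minus strand): atgTGCaaaggacttgcaggtctgccggct
Rgs5 (chr1:169655578-169655607, plus strand): atgTGTaagggactggcagctctgccgcac
Rgs16 (chr1:153740469-153740498, plus strand): atgTGCcgcaccctagccaccttccccaac
Rgs8 (chr1:153667928-153670786, plus strand, spliced within this range): atgGCTgccttactgatgccacgcaggaac
Rgs4, Rgs5 and Rgs16 carry the cysteine, and Rgs8, of the same R4 subfamily, carries alanine.

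The gene tables held 26037002 expected counts over mouse genes for pup 1 and 32408655 for pup 3, so the limit that a count of 0 allows, 3 counts, equalled 0.115 and 0.0926 CPM. Levels between genes are compared as TPM, which corrects for transcript length, and detection means a TPM of at least 1. Ratios between the pups are of expected counts scaled by each library's total. Against the tissue label, all 6 neuronal markers were detected in both libraries, and 3 of 7 midbrain markers were (Meis2, Pou4f1 and Gata3). Of the other cell types, 6 of 7 radial glia and astrocyte markers, 6 of 6 fibroblast markers, 5 of 8 microglial, 4 of 7 oligodendrocyte-lineage, 5 of 13 mural and 2 of 9 endothelial markers were read in both, as were 3 of 8 markers of dopamine neurons. In such tissue RNA, fewer cells of a type and less RNA per cell cannot be told apart. With 1 library per pup no difference between pups has a replicate check, no test was run, and SD over n = 2 is the only measure of spread.

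Of the 40 genes, 32 were detected in both pups, against 17.0% of all mouse gene rows and 31.8% of protein-coding genes. Gnb5 and Rgs20 were detected in pup 1 only, Gng8 and Gng13 in pup 3 only, and Gnb3, Rgs7, Rgs14 and Rgs16 had 0 counts in both libraries. The counts by class were 10 of 10 alpha subunits in both pups, 3 of 5 beta subunits, 8 of 10 gamma subunits, 9 of 13 RGS genes and both Ric8 genes. All 4 genes with no count in either library belong to the beta and RGS classes.

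**Figure D1:**
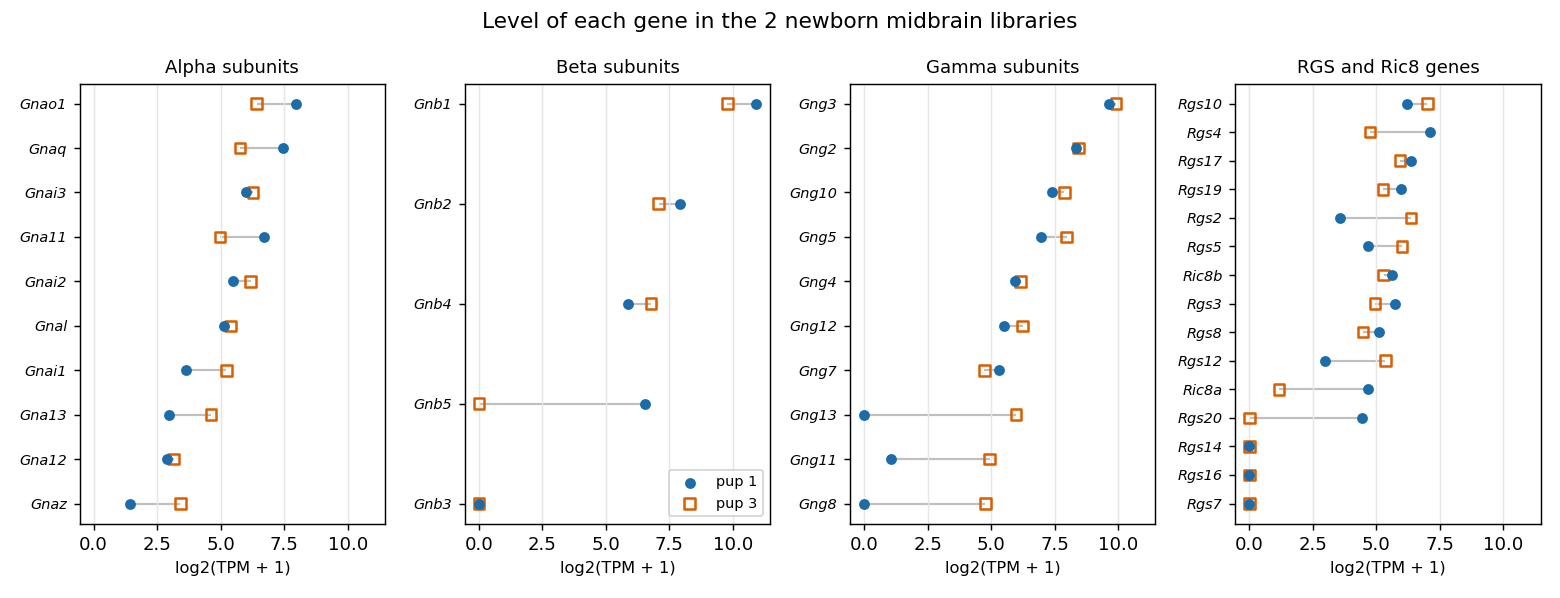
Level of each of the 40 genes as log2(TPM + 1), 1 panel per class, with a filled circle for pup 1, an open square for pup 3 and a grey line joining them. Gnb1 and Gng3 sit highest in both pups, and Gnb5, Gng13, Gng8 and Rgs20 each have 1 pup at 0.

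Among the listed genes, the beta-gamma subunits held the highest levels. Gnb1 read 1935 TPM in pup 1 and 880 in pup 3, a mean of 1408 ± 746 (SD, n = 2). Gng3 read 794 and 972 TPM, a mean of 883 ± 126 (SD, n = 2). The mean TPM of Gnb1 exceeded that of 99.1% of genes detected in both libraries, and that of Gng3 exceeded 98.3%. The highest listed alpha subunit by TPM, Gnao1, and the highest listed RGS gene, Rgs10, had lower levels, with means of 167 and 101 TPM. The gene of the stimulatory Gs subunit is not on the list. By expected counts, not per length, Gnaq led the alpha genes and Rgs4 the RGS genes.

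Summed over each class, the alpha genes read 694 TPM in pup 1 and 435 in pup 3, the beta genes 2324 and 1123, the gamma genes 1550 and 2096, and the RGS genes 507 and 488. The gamma sum was 0.667 times the beta sum in pup 1 and 1.87 times the beta sum in pup 3. The order of those classes was therefore opposite in the 2 libraries; their proteins form dimers of 1 subunit each. The RGS sum was the closest between pups, 497 ± 12.9 TPM (SD, n = 2).

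Among the alpha subunits the leading class was Gi/o, which held 53.2% of the summed alpha TPM in pup 1 and 64.1% in pup 3, a mean of 58.7% ± 7.76 (SD, n = 2). These shares are over the 10 listed alpha genes, and the gene of the stimulatory Gs subunit is not among them. Gq and G11 together held 40.0% and 19.3%, G12 and G13 together 1.89% and 7.21%, and Gnal, the olfactory stimulatory subunit, 4.98% and 9.34%. By TPM, Gi/o was first and Gq/11 second in both pups. By expected counts, which are not per length, Gq/11 came first in pup 1 with 50.6% against 40.2%, and Gi/o came first in pup 3 with 49.2% against 26.1%.

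Gnao1, the alpha subunit of Go and a major membrane protein of neurons (ENSMUSG00000031748.11, chromosome 8, 93809966 to 93969388), stood at 249 TPM in pup 1 and 84.7 in pup 3. The scaled counts were 2.78 times higher in pup 1 (95% counting interval 2.69 to 2.87). Gnaq, which activates phospholipase C beta, read 175 and 53.4 TPM, a 2.92-fold higher count in pup 1. Gna11, its close paralogue, read 102 and 30.5 TPM, a 2.99-fold higher count in pup 1. These 3 genes were lower in pup 3 by nearly the same factor.

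The 3 Gi genes were all higher in pup 3. Gnai1 read 11.6 TPM in pup 1 and 36.4 in pup 3, Gnai2 43.6 and 71.7, and Gnai3 62.7 and 76.2. The scaled counts of Gnai1 were 3.53 times higher in pup 3, those of Gnai2 1.81 times and those of Gnai3 1.37 times. The 3 together held 17.0% of alpha TPM in pup 1 and 42.4% in pup 3, so Gnao1 led the Gi/o class in pup 1 and the Gi genes together led it in pup 3.

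The remaining alpha genes were lower. Gnal read 34.5 TPM in pup 1 and 40.6 in pup 3, with a mean of 37.6 ± 4.29 (SD, n = 2). Gna13, of the G12/13 class, read 6.72 and 23.5 TPM, and its count ratio of 3.92 (3.60 to 4.26) lay across the 4-fold limit. Gna12, its paralogue, read 6.38 and 7.88 TPM. It shares 13.3% of its exon bases with Amz1 on the opposite strand, which read 25.4 TPM in pup 1 and 0 in pup 3. The part of shared reads in the value of Gna12 was not tested. Gnaz, the Gi/o member that pertussis toxin does not modify, read 1.67 and 9.69 TPM, the lowest mean of the class. It was the single alpha gene beyond 4-fold, with counts 6.56 times higher in pup 3 (5.25 to 8.29).

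Pairs of paralogues were compared within each library, which removes any factor common to the library. To name a direction, both libraries had to lie on the same side, and the deposited TPM intervals of the genes had to be apart in each. This held for 21 of 25 pairs, while 23 lay on the same side. The 21 include Rgs7/Rgs8, Rgs10/Rgs14, Rgs12/Rgs14 and Rgs2/Rgs16, where a gene with 0 counts in both libraries fixed the direction. In Gnb2/Gnb5, Gng4/Gng8 and Rgs17/Rgs20 the second gene had 0 counts in 1 library. The share over other gene pairs was not computed. The pair Gnaq and Gna11, whose coding sequences are 80.5% identical, was the steadiest: the log2 ratio of TPM + 1 was 0.77 in pup 1 and 0.79 in pup 3. Gnao1 exceeded Gnaq by 0.51 and 0.65 on that log2 scale, while by expected counts, not per length, the mean log2 ratio turned to -0.40. Gnao1 exceeded Gnai1 by 4.32 and 1.19. Gnai2 exceeded Gnai1 by 1.83 and 0.96. No direction was named for Gnai2 and Gnai3 (-0.51 and -0.09) or for Gna12 and Gna13 (-0.07 and -1.46).

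**Figure D2:**
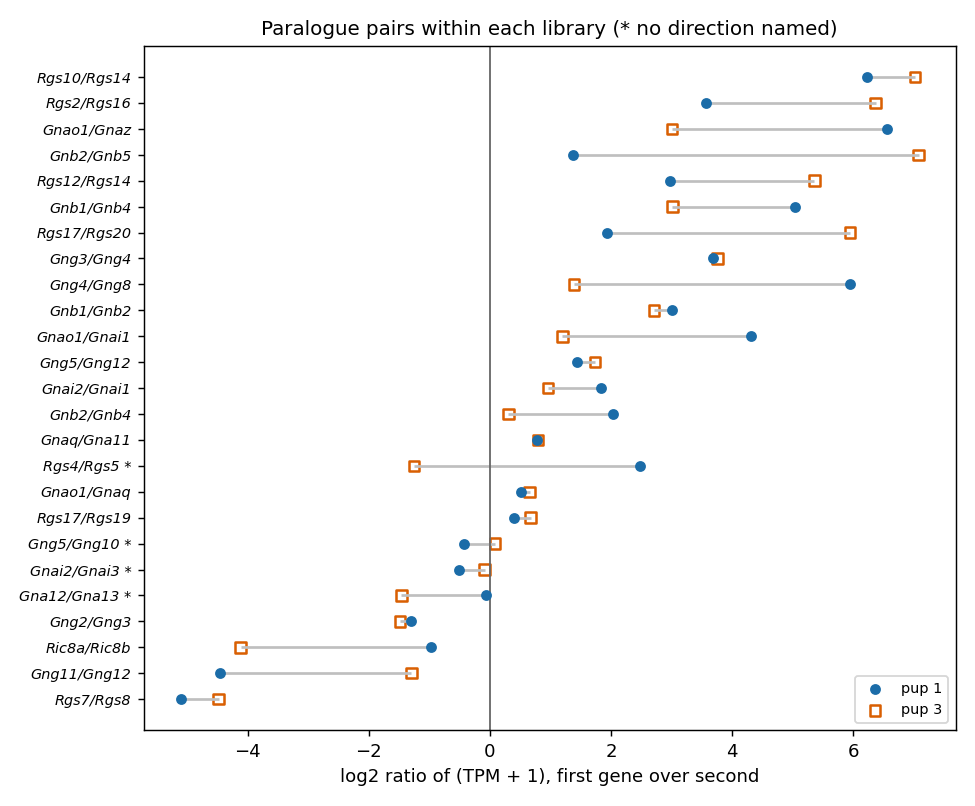
Log2 ratio of TPM + 1, first gene over second, for 25 paralogue pairs, with a filled circle for pup 1, an open square for pup 3 and an asterisk where no direction was named. Gnaq/Gna11, Gng3/Gng4 and Gng2/Gng3 have nearly coincident points, and Rgs4/Rgs5 lies on opposite sides of 0.

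Gnb1, the predominant brain beta subunit (ENSMUSG00000029064.11, chromosome 4, 155491361 to 155559269), held 83.3% of beta TPM in pup 1 and 78.4% in pup 3, a mean of 80.8% ± 3.43 (SD, n = 2). The scaled counts of Gnb1 were 1.96 times higher in pup 1. Gnb2, found in many tissues, read 239 and 134 TPM but had nearly equal scaled counts, 1.11 times higher in pup 1. Gnb4 read 58.1 and 108 TPM, with counts 1.72 times higher in pup 3. By TPM the order Gnb1, Gnb2, Gnb4 was the same in both pups, with Gnb1 over Gnb2 by 3.01 and 2.71 on the log2 scale and Gnb2 over Gnb4 by 2.03 and 0.30. By expected counts, not per length, Gnb2 over Gnb4 turned to a mean of -0.19, and 76.8% and 50.7% of Gnb2 lay on transcripts annotated as retaining an intron.

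Gnb5, the atypical beta subunit that binds RGS proteins of the R7 subfamily in place of a gamma subunit, read 91.7 TPM from 1628 counts in pup 1 and had no count in pup 3. Against the limit of 3 counts this is 675-fold higher in pup 1, and the lower end of the counting interval is 549-fold. Rgs7, its R7 partner in the list, had no count in either library, which allows up to 3 counts in each. Gnb3, the beta subunit of cones and some other cells, also had none.

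Gng3, a gamma subunit of neurons (ENSMUSG00000071658.4, chromosome 19, 8836933 to 8839194), held 51.2% of gamma TPM in pup 1 and 46.4% in pup 3, a mean of 48.8% ± 3.42 (SD, n = 2). Gng2 followed with 320 and 347 TPM, or 20.7% and 16.6% of the class. The log2 ratio of Gng2 to Gng3 was -1.31 and -1.48, and that of Gng3 to Gng4 was 3.68 and 3.76. Gng4 itself read 60.8 and 70.8 TPM. The 3 genes were spaced alike in both libraries by TPM. Expected counts, not per length, did not keep the spacing of Gng2 and Gng3 or that of Gng3 and Gng4. Gng2 had 14822 counts in pup 1 and 15647 in pup 3, Gng3 20699 and 35414, and Gng4 3053 and 3689. The effective length of Gng2 was 2840 nt in pup 1 and 1977.5 nt in pup 3, and that of Gng4 3081 and 2288 nt. Gng3 shares 24.2% of its exon bases with Bscl2 on the opposite strand, which read 169 and 162 TPM.

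The gamma genes found in many tissues formed the next tier. Gng10 read 167 TPM in pup 1 and 236 in pup 3, Gng5 124 and 251, and Gng12 45.1 and 74.8. All 3 were higher in pup 3 by TPM, but by scaled counts Gng12 was lower in pup 3. Gng10 shares 72.0% of its exon bases with Gm20503 on the same strand, a gene listed at 0 in both libraries. Gng5 lay 0.43 below Gng10 on the log2 scale in pup 1 and 0.09 above it in pup 3, so no order was named for them, while Gng5 exceeded Gng12 by 1.44 and 1.73. Gng7, known from striatal neurons, read 38.3 and 25.7 TPM.

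The 3 gamma genes beyond 4-fold were Gng8, Gng11 and Gng13, all higher in pup 3. Their means were the lowest of the class, but in pup 3 alone Gng7 read lower, at 25.7 TPM. Gng11, the serine-ending gene shown above, read 1.10 TPM from 14 counts in pup 1 and 29.9 TPM from 531 counts in pup 3, a count ratio of 30.5 (18.0 to 56.1). Gng8, known from olfactory neurons, had no count in pup 1 and 495 in pup 3 (26.5 TPM). Against the limit of 3 counts Gng8 was 133-fold higher in pup 3, with a lower interval end of 107-fold. Gng13, known from taste cells and retinal bipolar cells, had no count in pup 1 and 412 in pup 3 (62.4 TPM). By the same limit Gng13 was 110-fold higher in pup 3, with a lower interval end of 89.3-fold. Beside the value of Gng11, the summed TPM of 9 endothelial markers was 201 in pup 1 and 188 in pup 3, with Tek and Slco1a4 at 0 in both. The list moved both ways: Kdr read 0.48 and 17.8 TPM, Ly6c1 0 and 45.3, and Flt1 2.83 and 10.4. Cldn5, the highest of the list, read 147 and 115 TPM, and Esam 49.8 and 0. Pecam1 and Cdh5 were not detected in either pup. Without Esam, left out after its values were seen, the sum was 151 and 188 TPM. The sum without Ly6c1, which moved the other way, was not computed. The part of endothelial RNA in the level of Gng11 was not tested. Exons of Gng13 share 51.6% of their bases with Chtf18 on the opposite strand, which read 34.5 TPM in pup 1 and 0.01 in pup 3. The use of strand in counting is not given in the sources used here, so the level of Gng13 is uncertain.

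**Figure D3:**
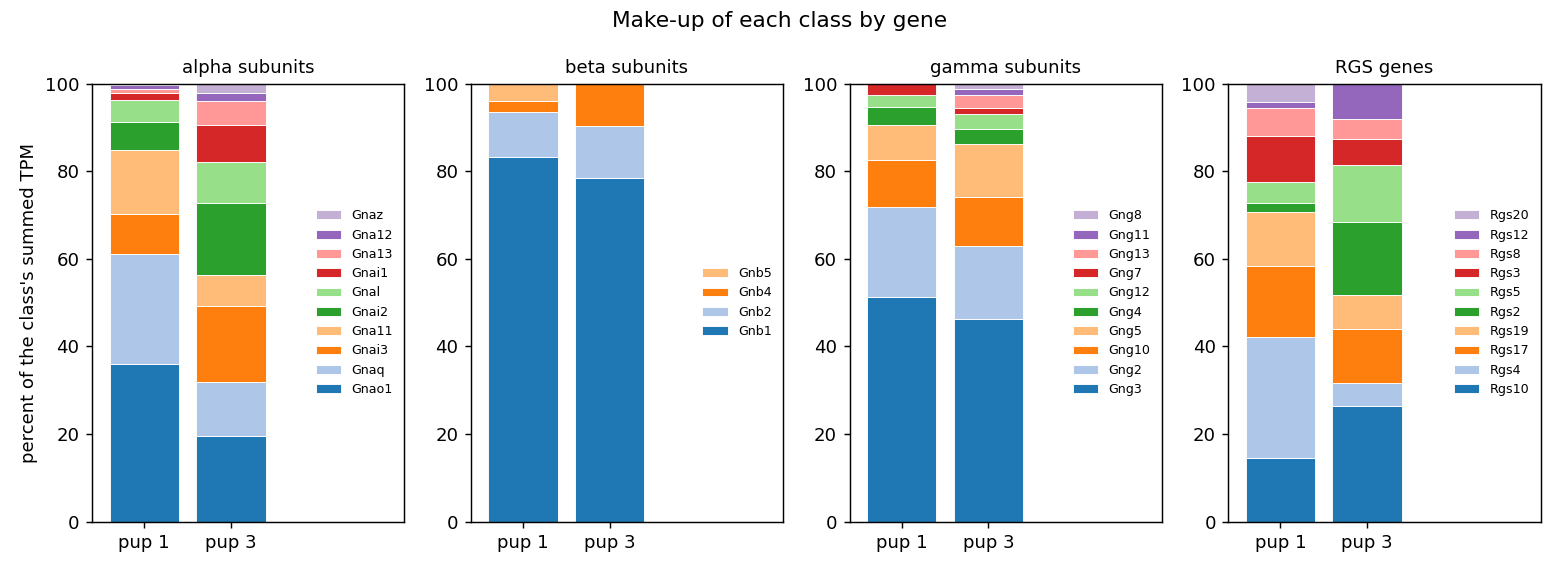
Share of each class's summed TPM held by each gene, stacked to 100 percent, for pup 1 and pup 3. Gnb1 and Gng3 take the largest share of their classes in both pups, whereas the largest RGS share is that of Rgs4 in pup 1 and of Rgs10 in pup 3.

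No RGS gene dominated its class as Gnb1 or Gng3 did. Rgs10 had the highest mean, with 73.8 TPM in pup 1 and 128 in pup 3, which is 14.6% and 26.3% of RGS TPM. Rgs4 was first in pup 1 with 140 TPM and 27.5%, and it read 26.0 TPM and 5.32% in pup 3. The leading RGS gene was therefore different in the 2 libraries. By subfamily, R4 genes (Rgs2, Rgs3, Rgs4, Rgs5, Rgs8 and Rgs16) held 51.5% and 45.4%, RZ genes (Rgs17, Rgs19 and Rgs20) 32.6% and 20.1%, and R12 genes (Rgs10, Rgs12 and Rgs14) 15.9% and 34.5%. By TPM over all transcripts R4 was first in both pups, and the order of RZ and R12 was opposite in them. In pup 3 these sums include transcripts annotated as retaining an intron, with 96.4% of Rgs3 and 50.1% of Rgs12. They also include 62.1% of Rgs2, on a transcript annotated for decay. The order over coding transcripts alone was not computed.

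Within R4, Rgs4, which acts on Gi/o and Gq in neurons, had counts 5.31 times higher in pup 1 (5.01 to 5.62). Rgs2, which prefers Gq, read 10.9 TPM in pup 1 and 81.5 in pup 3, with counts 5.39 times higher in pup 3 (4.81 to 6.04). Both lay beyond 4-fold, in opposite directions. Rgs3, a member with long and short forms, read 52.6 and 29.9 TPM, and Rgs8, known from Purkinje cells, 33.4 and 21.3 TPM. Rgs16, the third gene of the cysteine-start set shown above, had no count in either library.

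Among the RZ and R12 genes, Rgs17 stood at 82.3 TPM in pup 1 and at 60.5 in pup 3, and Rgs19, first found as a Gi alpha partner, 62.1 and 37.6. Rgs17 exceeded Rgs19 by 0.40 and 0.67 on the log2 scale. Rgs20, an RZ protein that acts on Gz, read 20.9 TPM from 571 counts in pup 1 and had no count in pup 3. Against the limit of 3 counts Rgs20 was 237-fold higher in pup 1, with a lower interval end of 192-fold. Gnaz, which encodes the alpha subunit of Gz, was higher in pup 3. Rgs12, a scaffold with RGS and GoLoco domains, read 6.85 and 39.9 TPM, with counts 5.11 times higher in pup 3 (4.62 to 5.66), and Rgs14 had no count in either. Rgs10 is abundant in microglia as well as neurons. The 8 microglial markers summed to 153 TPM in pup 1 and 125 in pup 3, with Tmem119 at 0 in both. Within the list, Ctss read 55.3 and 1.75 TPM, C1qc 41.5 and 34.9, P2ry12 23.8 and 18.0, and Cx3cr1 3.13 and 0.04, all lower in pup 3. Higher in pup 3 were C1qb with 13.2 and 39.2 TPM, Csf1r with 15.4 and 29.2, and C1qa with 0.59 and 2.47. Without Ctss, left out after its values were seen, the sum was 97.6 and 124 TPM, so the direction of the sum rests on that gene. The part of microglial RNA in the level of Rgs10 was not tested.

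Rgs5, the mural-cell member of the list (ENSMUSG00000026678.6, chromosome 1, 169655501 to 169695813, plus strand), read 24.2 TPM from 1579 counts in pup 1 and 63.2 TPM from 5753 counts in pup 3. Its mean was 43.7 ± 27.5 TPM (SD, n = 2), which exceeded that of 52.4% of genes detected in both libraries. The scaled counts were 2.93 times higher in pup 3 (2.77 to 3.10). Rgs4 lies nearby on the opposite strand (169741477 to 169747642). The log2 ratio of Rgs4 to Rgs5 was 2.48 in pup 1 and -1.25 in pup 3, 1 of the 2 pairs on opposite sides. All counts of Rgs5 in both libraries fell on 1 transcript, Rgs5-201.

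The other mural markers did not form a uniform set. Of 13, the libraries shared 5, while 3 were read in pup 1 alone, 2 in pup 3 alone and 3 in neither. Higd1b stood at 22.7 TPM in pup 1 and at 52.6 in pup 3, and Ndufa4l2 13.3 and 35.7, both higher in pup 3 as Rgs5 was. Vtn read 80.0 and 64.4 TPM, and Pdgfrb, the receptor that defines pericytes, 3.05 and 1.65, both lower in pup 3. Cspg4, which encodes NG2, read 5.04 and 10.2 TPM. Kcnj8, Abcc9 and Notch3 had counts in pup 1 only, with 8.02, 5.22 and 9.83 TPM, while Acta2 and Des, contractile-cell genes, had counts in pup 3 only, with 8.61 and 22.0 TPM. Tagln, Anpep and Myh11 were at 0 in both. The summed TPM of the 13 was 147 in pup 1 and 195 in pup 3, 1.33-fold higher in pup 3 against 2.61-fold for the TPM of Rgs5, and the part of mural cell content in the level of Rgs5 was not tested.

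**Figure D4:**
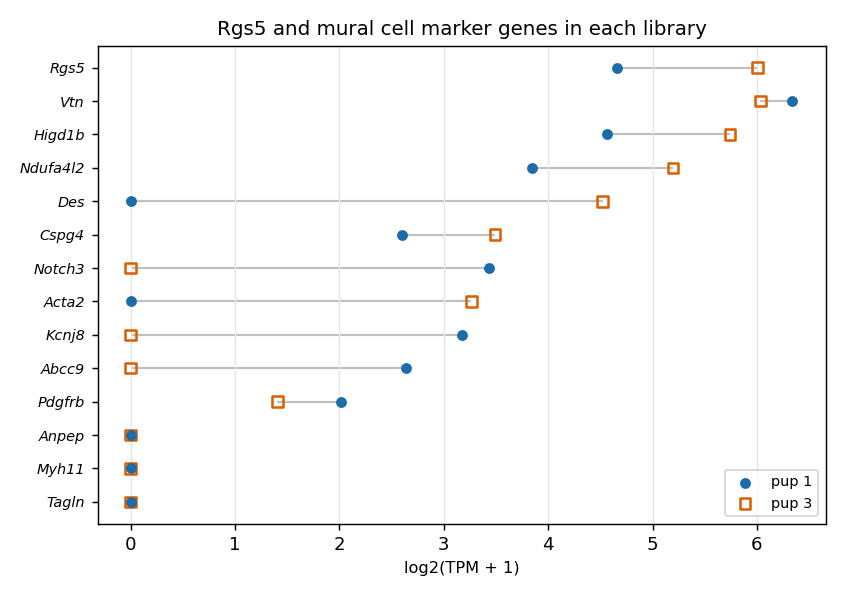
Level of Rgs5 and of 13 other mural cell markers as log2(TPM + 1), with a filled circle for pup 1 and an open square for pup 3. Rgs5, Higd1b, Ndufa4l2 and Cspg4 are higher in pup 3, Vtn and Pdgfrb are lower, 5 genes have 1 pup at 0 and 3 have both at 0.

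The chaperones also differed from each other. Ric8b, which serves stimulatory alpha subunits, read 48.8 TPM in pup 1 and 38.2 in pup 3. Ric8a, which serves the Gi, Gq and G12/13 classes, read 24.4 TPM from 1045 counts and 1.26 TPM from 59 counts, with counts 22.0 times higher in pup 1 (17.0 to 29.2). Ric8b exceeded Ric8a in both pups. Ric8a shares 5.92% of its exon bases with Sirt3 and 5.52% with Bet1l on the opposite strand. Sirt3 stood at 62.6 TPM in pup 1 and at 0.03 in pup 3, and Bet1l 62.8 and 1.93, so both neighbours were also higher in pup 1, and the part of shared reads in the value of Ric8a was not tested.

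Across the list, 36 genes had counts, and 10 of them lay beyond 4-fold. Higher in pup 1 were 4 (Gnb5, Ric8a, Rgs4 and Rgs20), where 23.1% of all 14605 mouse genes with a count were. Higher in pup 3 were 6 (Gnaz, Gng8, Gng11, Gng13, Rgs2 and Rgs12), where 17.9% of genes were. The list was not tested against other genes. The median fold apart in TPM was 1.76 for the 32 genes detected in both and 1.80 for all genes detected in both. For the 17 genes of the list with a mean of 50 TPM or more it was 1.73, against 1.64 for 3219 genes at that level. Of the 32 genes, 19 were higher in pup 3 by TPM and 13 in pup 1, and the median log2 ratio of TPM + 1, pup 3 over pup 1, was 0.25 against 0.10 for all genes. By scaled counts the 32 genes split into 16 higher in each pup, and the median log2 ratio of TMM-scaled CPM was -0.016.

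**Figure D5:**
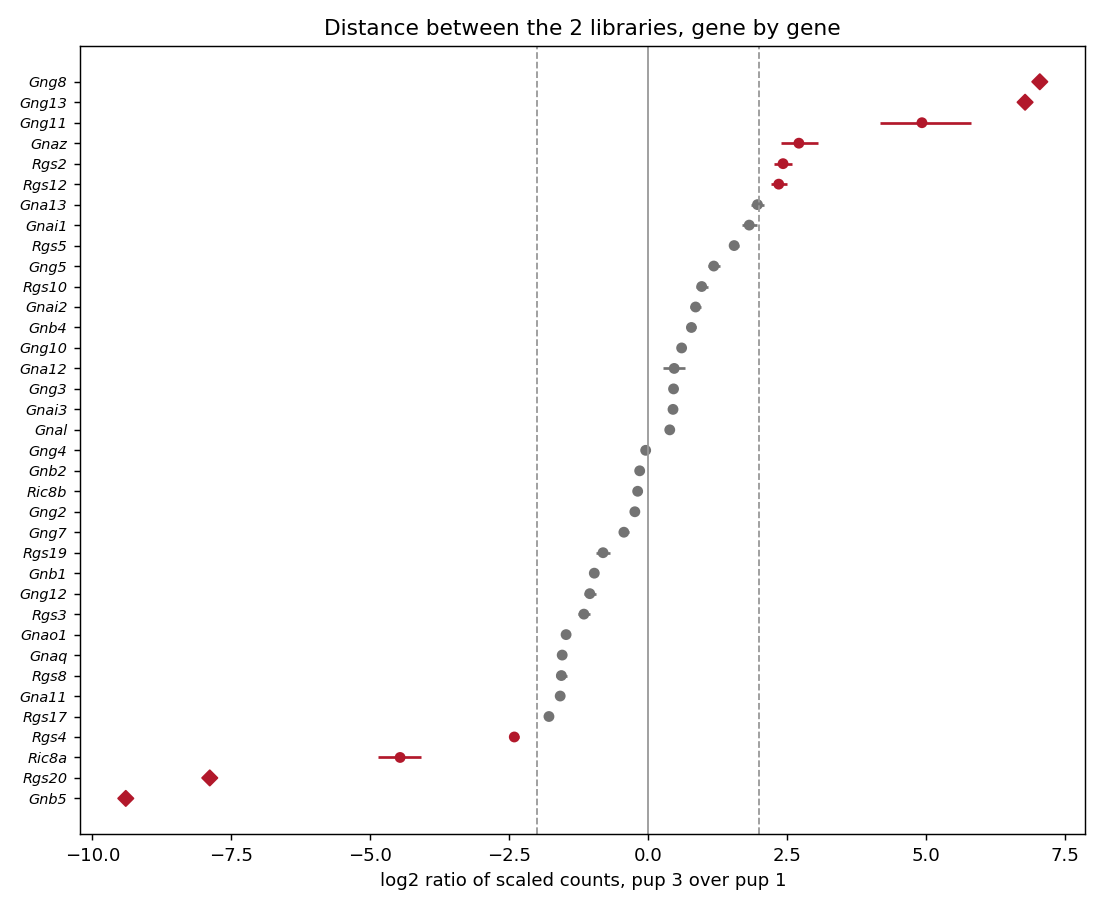
Log2 ratio of scaled counts, pup 3 over pup 1, for the 36 genes with a count, with 95% counting intervals as bars and dashed lines at 4-fold. Red marks the 10 genes whose whole interval lies beyond 4-fold. Diamonds, for genes with 0 counts in 1 pup, stand at the value set by 3 counts.

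Transcript tables showed how far each gene's level rested on the same transcript model. The comparison took genes with 2 or more transcripts and no fewer than 50 counts per library. The leading transcript was the same in both libraries for 18 of 27 such genes of the list, against 62.8% of 5311 genes. Gnb1-208 held 99.1% of Gnb1 in pup 1 and 97.9% in pup 3. For Gnao1, the transcripts Gnao1-201 and Gnao1-203 have an identical coding sequence of 1065 bases, and together they held 92.0% and 90.3%. A shorter coding model, Gnao1-206, held 8.02% in pup 1 and 0 in pup 3. The form with the alternative end shown above, Gnao1-207, is identical for the first 737 bases and 73.2% identical over the last 328. Gnao1-207 had 0 counts in both libraries. Its model was 2333 nt long in the deposited tables and 5526 nt in GENCODE M21.

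The leading transcript differed between pups for 9 genes, namely Gng2, Gng7, Gng12, Rgs2, Rgs4, Rgs8, Rgs12, Rgs17 and Ric8a. In 4 of them (Gng2, Gng7, Gng12 and Rgs8) both leaders have the same coding sequence. Rgs4 was led by Rgs4-201 in pup 1 with 78.9% and by Rgs4-202 in pup 3 with 95.5%, with annotated coding sequences of 618 and 282 bases. Rgs4-202 itself had similar counts in both pups, 1188 and 1398, whereas Rgs4-201 had 5099 and 76.5. The difference in Rgs4 between the pups therefore lay mainly in Rgs4-201.

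For some genes much of the estimated abundance lay on transcripts annotated as retaining an intron, which do not encode the protein. Their share was 94.2% in pup 1 and 96.4% in pup 3 for Rgs3, 76.8% and 50.7% for Gnb2, and 66.6% and 90.1% for Gnb4. Ric8a had 48.5% and 100%, and Rgs12 11.4% and 50.1%. For Rgs2, 41.5% and 62.1% lay on a transcript annotated for nonsense-mediated decay. On a processed transcript without a coding sequence lay 0% and 40.7% of Gng10 and 0% and 26.7% of Gng4. The TPM of these genes is thus not a level of coding transcript alone. Other genes had smaller shares of this kind. In pup 3, Gnao1 had 6.76% on a transcript annotated for decay and 2.99% on one retaining an intron.

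Because TPM divides by effective length, a change of transcript can move it apart from the counts. For Gng2, Gng4 and Gng12 the TPM ratio and the count ratio lay on opposite sides of 1, which held for 9.46% of the 7389 genes detected in both. The largest case was Gng12, whose effective length was 2527 nt in pup 1 and 656 in pup 3. Its TPM was higher in pup 3, while its scaled counts were 2.07 times higher in pup 1. Leaders of Gng12 were Gng12-201 (53.7%) in pup 1 and the shorter Gng12-207 (98.3%) in pup 3.

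Effectors of the alpha subunits were read in part. Of 9 adenylyl cyclases, 3 were detected in both pups, where 31.8% of protein-coding genes were. Of the 7 with a count, 4 lay beyond 4-fold toward pup 1 and 1 toward pup 3, where 23.1% and 17.9% of all genes with a count did. Adcy1, the calcium-stimulated neuronal cyclase, stood at 31.8 TPM in pup 1 and at 3.89 in pup 3, and Adcy6, which Gi inhibits, 17.5 and 15.4. Adcy7 read 17.2 and 9.34 TPM and Adcy5 21.2 and 0.17, and Adcy3 and Adcy4 were at 0 in both. The cyclases summed to 99.3 TPM in pup 1 and 38.9 in pup 3.

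The phospholipase C beta genes are the effectors of Gq. Of 4, 2 were detected in both pups, and 3 lay beyond 4-fold toward pup 3, beside 17.9% of all genes. Plcb1 stood at 4.36 TPM in pup 1 and at 58.8 in pup 3, and Plcb2 0 and 24.6. Plcb4 read 52.6 and 48.8 TPM and Plcb3 0 and 0.93. The highest of them by mean, Plcb4, was not beyond 4-fold.

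Potassium channels opened by beta-gamma were sparse. Of 4 GIRK genes none was detected in both pups: Kcnj3 read 1.63 TPM in pup 1 and 0 in pup 3, Kcnj9 0 and 3.35, and Kcnj5 and Kcnj6 were at 0 in both. Of 7 receptor kinases and arrestins, 3 were in both. Grk2, the kinase recruited by beta-gamma, read 16.3 and 15.2 TPM, Grk6 17.7 and 10.5, and Arrb1 28.0 and 4.77. Arrb2 read 22.8 and 0.38 TPM, and Grk4 was at 0 in both. Of the 6 with a count, 2 lay beyond 4-fold toward pup 1 and 1 toward pup 3, beside 23.1% and 17.9% of all genes.

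Most further relatives of the subunits had no count. Of 5 other alpha subunits, Gna14, Gna15, Gnat2 and Gnat3 had 0 counts in both, and the rod transducin Gnat1 read 16.2 TPM in pup 1 and 0 in pup 3. Of the 2 other gamma subunits, Gngt1 was at 0 in both and Gngt2 read 13.7 TPM in pup 1 and 0 in pup 3. Of 15 other genes with RGS or GoLoco domains, 4 were detected in both pups. Gpsm1, which binds Gi alpha in its GDP form, read 87.1 and 73.0 TPM and Gpsm2, a spindle-orientation protein, 18.7 and 28.7. Axin1, a Wnt pathway scaffold with an RGS domain, read 0 and 39.3 TPM, and Rgs9 0 and 15.6. Rgs1, Rgs11, Rgs13, Rgs18, Rgs21, Rgs22, Rgs9bp and Gpsm3 were at 0 in both. Of the 7 with a count, 1 lay beyond 4-fold toward pup 1 and 2 toward pup 3, beside 23.1% and 17.9% of all genes.

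Of 34 receptors that couple to these proteins, 16 were detected by both libraries, 3 by that of pup 1 alone, 7 by that of pup 3 alone and 8 by neither. Oprl1, the nociceptin receptor, which couples to Gi/o, read 117 TPM in pup 1 and 133 in pup 3. Ednrb, the endothelin B receptor of glial cells, read 102 and 78.5 TPM. Adgrg1, an adhesion receptor of neural progenitors that couples to G12/13, read 157 and 17.6 TPM, and Gabbr1, a subunit of the GABA-B receptor, 59.1 and 41.5. Drd1, Drd2, Chrm1, Chrm4 and Ednra were at 0 in both. Of the 29 with a count, 6 lay beyond 4-fold toward pup 1 and 7 toward pup 3, beside 23.1% and 17.9% of all genes.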

How the data were processed

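Total RNA of newborn midbrain was measured in 2 libraries, 1 per pup, which form 1 group. Per the file headers and the notes deposited with them, the authors' tables are on mm10 with GENCODE M4, and per the labels' protocols the libraries are SMART-type with spike-ins. Which aligner and quantifier were used, and whether counting used strand, is not given in the sources used here. Deposited expected counts divide reads that match several features, and were rounded here to whole numbers for counting intervals. The deposited TPM and FPKM values are scaled by effective length and library by the authors. Isoforms rest on the deposited percent of a gene assigned to each transcript, and pairs on the deposited lower and upper bounds of TPM, recorded as a signal. These bounds centre on the posterior mean, and the TPM of 6 genes in pup 1 and 2 in pup 3 lay outside them.

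Ratios between pups used counts scaled by each library's total over mouse genes, with exact (Clopper-Pearson) 95% intervals. A gene lay beyond 4-fold where the whole interval did. Against 0 counts, folds are taken against a floor of 3 counts per library. The lower end of the exact interval is given beside each. These intervals and folds hold counting error alone, because amplified reads of few molecules are not independent. The log2 ratios of TPM used a pseudocount of 1. Symbols came from a table of gene names, and coordinates and coding sequences from GENCODE M21 on GRCm38. Exon overlap with other genes was found for 16 of the 40 genes.

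All 40 genes are named. Other pathway genes are named by rule: up to 4 per list by mean TPM and those at 0 in both libraries; a few others were added after their values were seen, and 1 list is not reported here. The members, lists and pairs were chosen with earlier results of these data known. Alternatives were other units, thresholds, pseudocounts, scalings (edgeR 4.0.16, DESeq2 1.42.0, for scaling factors only) and leaving out each pup. The interval rule was tested on simulated counts drawn independently, as the interval assumes, so that test does not cover amplified reads of few molecules. Tools were Python 3.11.15, numpy 2.4.6, pandas 2.3.3, scipy 1.17.1, matplotlib 3.10.9 and R 4.3.3.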

Additional observations from a re-analysis of the deposited data

How the results depend on the processing

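With expected counts in place of TPM, and so not per length, the Gi/o share of alpha subunits was 44.7%, that of Gnb1 among beta subunits 90.6% and that of Rgs10 among RGS genes 7.94%. On that scale Gnaq led the alpha genes and Rgs4 the RGS genes, and 2 pairs turned, Gnao1 over Gnaq to -0.40 and Gnb2 over Gnb4 to -0.19 on the log2 scale. Posterior mean TPM moved none of the 4 class shares by more than 1 SD. FPKM differs from TPM by 1 factor per library, so it could not move a share within a library. The number of genes beyond a fold limit was 20 at 2-fold and 6 at 8-fold, against 10 at 4-fold, and it was 10 with either edgeR or DESeq2 factors. Those factors shifted every log2 count ratio, pup 3 over pup 1, by -0.19 and -0.20, and turned the direction of 0 of the 32 genes with counts in both. The median log2 ratio was 0.25 on TPM and -0.016 with TMM-scaled CPM. That CPM is not per length and carries the shift of -0.19, and the part of each in the difference was not tested. For all genes detected in both, the median log2 ratio of counts scaled by library total, without that shift, was 0.21. Detection in both pups held for 32 genes at a TPM of 0.1 or with 10 expected counts, and for 26 at a TPM of 10. Without 1 pup, the share of Rgs10 ranged from 14.6% to 26.3%, that of Gi/o from 53.2% to 64.1% and the level of Rgs5 from 24.2 to 63.2 TPM. No paired analysis was possible because the 2 libraries form a single group.

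A limit is the input of 13 pg, with 1 library per pup: a gene with 0 counts in 1 library cannot be told from one whose molecules were not captured. A count of 0 allows up to 3 counts.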
